A study of Arabidopsis thaliana with 24 samples.

Results

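Gene expression was followed over the first day of dark incubation in detached leaves of ahk3/ore12, an Arabidopsis thaliana mutant with a constitutive cytokinin response. The comparison was between ahk3/ore12 leaves at 1 day after treatment (DAT) and ahk3/ore12 leaves at 0 DAT. It used 4 of the 24 arrays of the series, 2 per time point, and covered all 32627 genes on the array. The mutant carries 1 gain-of-function allele (ore12-1) of the cytokinin receptor gene AHK3. For comparison, the same step was taken in ein2/ore3 (ein2-44/ore3-1), which is insensitive to ethylene, and in Col (Columbia-0), the wild type. All plants were 21 d old and grown under long days, and the third and the fourth rosette leaves were taken at 12 days after leaf emergence. Leaves at 1 DAT had been cut off, floated on 3 mM MES buffer and kept in darkness, whereas leaves at 0 DAT were sampled before darkness. Effects of detachment, of floating on buffer and of darkness therefore cannot be told apart. The labels and methods do not say how many plants were pooled for a sample, and 1 allele stands for each mutant.

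Cytokinins are plant hormones that delay the ageing of leaves. They are perceived at membranes by histidine kinase receptors (AHK2, AHK3 and AHK4), which pass phosphate through histidine phosphotransfer proteins (AHPs) to response regulators (ARRs) in the nucleus. Type-B ARRs are transcription factors that switch on target genes, and type-A ARR genes are fast targets whose products feed back to dampen the signal, so that their transcripts serve as a common readout of cytokinin response. Dark incubation of detached leaves deprives them of photosynthetic sugar and is a standard way to start senescence, the ordered breakdown of chloroplasts and export of nutrients that ends the life of a leaf.

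Values are the deposited log2 signals, so a difference of 1 is a 2-fold difference in signal. A change is the mean at 1 DAT minus the mean at 0 DAT, given with its standard error (SE, n = 2 arrays per group). A gene was called, and is said to have risen or fallen, when limma's moderated test over all 24 arrays gave a Benjamini-Hochberg adjusted p under 0.05 across all genes. The replicates are biological replicates per the methods. The p-values and SEs rest on the spread between replicates within all 12 groups, moderated across genes. As a replicate number is also a slide, this spread includes any difference between slides. Signal below 6.95, the 25th percentile of all values, is called dim here, because the tables hold no background call. A change that starts or ends in the dim range is likely to be understated. Array medians were 9.10 to 9.13 on the 4 arrays, and replicates correlated across genes with r = 0.989 at 1 DAT and 0.994 at 0 DAT. AHK3 itself had 12.61 and 12.91 at 1 DAT, against 12.86 and 12.73 at 0 DAT, and, as the allele changes the protein, this level does not check the label. ACT2, an actin gene in wide use as a reference, had 15.15 and 15.15 at 1 DAT, against 14.73 and 14.81 at 0 DAT. Its change of 0.38 (SE 0.09, adjusted p = 0.0059) was small, and was not called without ahk3/ore12 0 DAT replicate 1 (0.34, adjusted p = 0.055). Of the markers of leaf mesophyll, the Rubisco small subunit gene RBCS1A had 15.91 and 16.00 at 1 DAT, against 16.24 and 16.29 at 0 DAT, and CA1, CAB2 and RCA fell by 4.87, 2.53 and 0.44. None of the 13 markers of guard cells, epidermis, vasculature and root hairs was called. The 3 flower markers were dim throughout, although AG had a called change of -0.60 within that range. In whole leaves, fewer cells of a type and less RNA per cell cannot be told apart.

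The first day moved a large share of the transcriptome. Of 32627 genes, 8440 (25.9%) were called, 4430 (13.6%) higher and 4010 (12.3%) lower at 1 DAT. Without ahk3/ore12 1 DAT replicate 1 the rises numbered 2777. Falls were larger than rises, with a median of -1.03 among called genes that fell and 0.78 among those that rose, beside a median change over all genes of 0.06. Changes of at least 1 were called for 1571 rises and 2100 falls, and changes of at least 4, a 16-fold step, for 64 rises and 98 falls. The arrays of the groups did not overlap in any of the called genes, which with 2 arrays per group was also so for 18221 genes (55.8%) of all. Called rises began in the dim range for 256 genes and called falls ended there for 343 genes. The same step called 7429 genes (22.8%) in ein2/ore3, 13.9% higher and 8.87% lower, and 9227 genes (28.3%) in Col, 4324 higher and 4903 lower. Of the genes that rose in ahk3/ore12, 3280 also rose in Col, which was 74.0% of the ahk3/ore12 list and 75.9% of the Col list. The falls shared 3588 genes, 89.5% of the ahk3/ore12 list and 73.2% of the Col list, and 7 genes were called in opposite directions. With ein2/ore3 the shared rises numbered 2721 (61.4% of the ahk3/ore12 list and 60.0% of the ein2/ore3 list), the shared falls 2450 (61.1% and 84.6% of these lists), and 71 genes were called in opposite directions. Genes with large changes held them at later times. Those that rose by at least 2 had median changes from 0 DAT of 2.72, 3.04 and 3.00 at 1, 2 and 3 DAT. Those that fell by at least 2 had -2.75, -2.73 and -2.76 at these times. These genes were chosen on the arrays of 0 and 1 DAT, and each of these medians uses the same 0 DAT arrays. All of the medians are therefore a description and no independent support.

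The 10 largest rises lay between 6.07 and 7.93. EXT4, an extensin of the cell wall, had 15.03 and 14.75 at 1 DAT, against 6.37 and 7.55 at 0 DAT. Its change was 7.93 (SE 0.54, adjusted p = 3.9e-08), and with 1 array at 0 DAT in the dim range and a mean of 6.96 its size is likely to be understated. LTP2, a lipid transfer protein, had 15.03 and 14.62 at 1 DAT, against 7.02 and 7.55 at 0 DAT, a change of 7.54 (SE 0.56). MIOX2, a myo-inositol oxygenase that feeds inositol into cell wall precursors, had 12.97 and 12.38 at 1 DAT, against 5.61 and 5.54 at 0 DAT, a change of 7.10 (SE 0.35). In each of these genes both arrays at 1 DAT stood far above both at 0 DAT. Prx37, a class III peroxidase, had 13.47 and 12.91 at 1 DAT, against 6.58 and 6.50 at 0 DAT, and rose by 6.65 (SE 0.25, adjusted p = 1.5e-10). TH8, an h-type thioredoxin, had 13.36 and 13.38 at 1 DAT, against 7.16 and 7.15 at 0 DAT, and had the smallest SE of the 10 largest rises (change 6.21, SE 0.17). XTH15, a xyloglucan-modifying wall enzyme, had 14.40 and 13.60 at 1 DAT, against 7.91 and 7.96 at 0 DAT. AZI1, a protein of the lipid transfer family linked to systemic immunity, had 15.32 and 15.23 at 1 DAT, against 8.59 and 9.69 at 0 DAT. The remaining 3 of the 10 were AT3G46280 (change 7.77), AT5G39580 (6.20) and AT4G15610 (6.17), and the means of AT3G46280, MIOX2, Prx37 and AT4G15610 were dim at 0 DAT. All 10 were also called higher in ein2/ore3 and in Col. The EXT4 change was 5.67 in ein2/ore3 and 6.85 in Col. Of the 10, Prx37 was called different from ein2/ore3, where it changed by 3.33 (difference 3.31, adjusted p = 0.00021), and none was called different from Col.

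**Figure D1:**
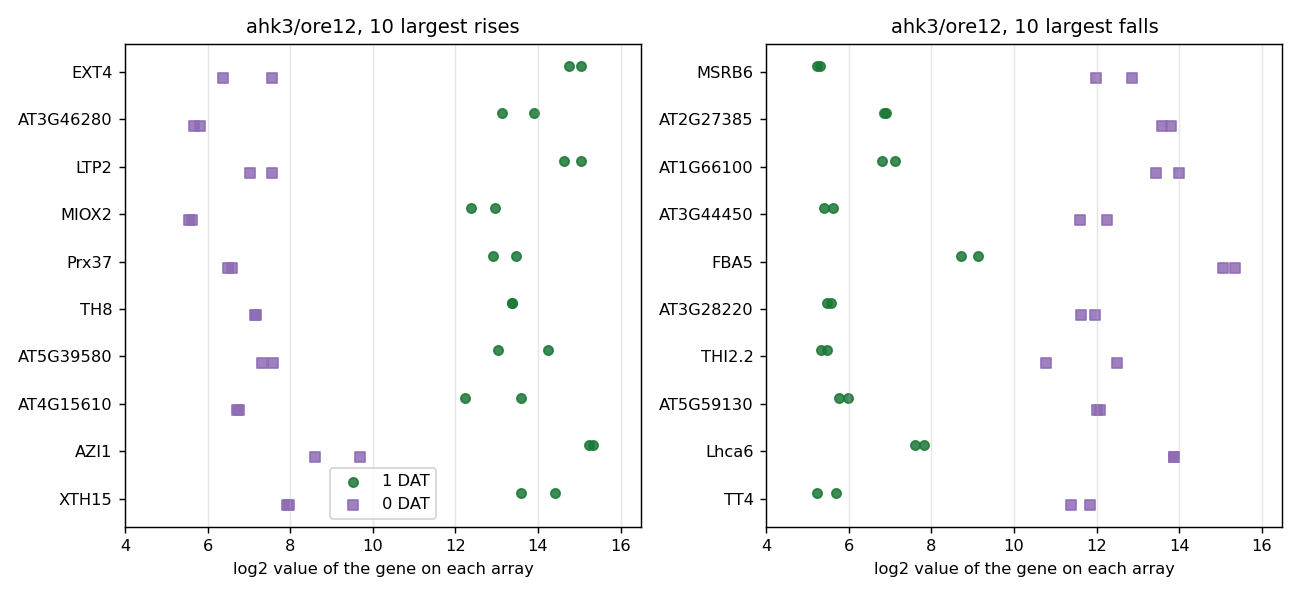
The log2 value on each of the 4 ahk3/ore12 arrays (x axis) is drawn for the 10 largest rises (left panel) and the 10 largest falls (right panel), with circles for 1 DAT and squares for 0 DAT. In every row the circles and squares stand apart, as in EXT4 with 15.03 and 14.75 at 1 DAT, against 6.37 and 7.55 at 0 DAT.

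The 10 largest falls lay between -7.15 and -6.16. MSRB6, a methionine sulfoxide reductase, had 5.31 and 5.23 at 1 DAT, against 12.85 and 11.99 at 0 DAT, a change of -7.15 (SE 0.43, adjusted p = 9.4e-09). FBA5, a fructose-bisphosphate aldolase, had 9.12 and 8.72 at 1 DAT, against 15.36 and 15.07 at 0 DAT (change -6.30). Lhca6, a light-harvesting protein that joins photosystem I to the chloroplast NDH complex, had 7.61 and 7.82 at 1 DAT, against 13.87 and 13.88 at 0 DAT (change -6.16). FBA5 and Lhca6 were still above the dim range at 1 DAT, as was the mean of AT1G66100, and the other 7 ended in it. TT4, the chalcone synthase (CHS) that opens flavonoid synthesis, had 5.22 and 5.69 at 1 DAT, against 11.39 and 11.84 at 0 DAT (change -6.16). THI2.2, a thionin, had 5.33 and 5.46 at 1 DAT, against 12.49 and 10.77 at 0 DAT, so the size of its fall rests on widely spaced values at 0 DAT. The others were AT2G27385 (-6.81), AT1G66100 (-6.76), AT3G44450 (-6.42), AT3G28220 (-6.27) and AT5G59130 (-6.18). All 10 fell in Col by 5.71 to 7.01, and none was called different from Col. Their changes in ein2/ore3 spread more widely, between -0.67 for AT3G28220 and -6.15 for THI2.2, and MSRB6, FBA5, AT2G27385, AT1G66100 and AT3G28220 were called different from ein2/ore3.

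The largest differences in change between ahk3/ore12 and Col lay among the type-A ARR genes. Of the 10 measured, 0 rose and 3 fell in ahk3/ore12, with a median change of -0.50, where 13.6% of all genes rose and 12.3% fell. In ein2/ore3 8 of the 10 fell (median -1.85), where 8.87% of all genes did. In Col 8 of the 10 fell (median -2.94), where 4903 of all 32627 genes did. ARR6 had 11.76 and 11.13 in ahk3/ore12 at 1 DAT, against 11.42 and 10.71 at 0 DAT. Its change of 0.38 (SE 0.29, 95% interval -0.24 to 1.0) was not called. In ein2/ore3 the gene had 6.21 and 5.94 at 1 DAT, against 9.79 and 10.10 at 0 DAT, and in Col it had 5.40 and 5.54 at 1 DAT, against 11.20 and 10.59 at 0 DAT. At 1 DAT both ahk3/ore12 arrays stood clear of the arrays of ein2/ore3 and Col, while at 0 DAT the arrays of ahk3/ore12 and Col overlapped and those of ein2/ore3 lay lower. The ahk3/ore12 change exceeded that of Col by 5.81 (SE 0.41, adjusted p = 1.0e-05) and that of ein2/ore3 by 4.25 (SE 0.41, adjusted p = 0.00011). The comparisons with Col and with ein2/ore3 share the ahk3/ore12 arrays and are not independent of each other.

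ARR7 kept its level too, with 10.63 and 10.42 in ahk3/ore12 at 1 DAT, against 10.59 and 10.28 at 0 DAT (change 0.09, 95% interval -0.33 to 0.51). Col leaves had 6.19 and 6.28 at 1 DAT, against 10.42 and 10.25 at 0 DAT, and the changes differed by 4.19 (SE 0.28, adjusted p = 1.0e-05). ARR5 (RR5 in the annotation) had 10.60 and 9.70 in ahk3/ore12 at 1 DAT, against 10.82 and 10.31 at 0 DAT, a change of -0.42 (95% interval -1.0 to 0.17). The groups overlapped, in contrast to Col with 6.95 and 7.23 at 1 DAT, against 10.98 and 10.55 at 0 DAT. The difference from Col was 3.26 (SE 0.39, adjusted p = 0.0060). ARR4 had 12.40 and 12.37 in ahk3/ore12 at 1 DAT, against 13 and 12.95 at 0 DAT, lower in both replicates by a similar amount. The change of -0.59 was not called over all arrays (adjusted p = 0.17) but was called when the fit held the 8 ahk3/ore12 arrays alone (adjusted p = 0.012). Col fell further, with 10.20 and 9.33 at 1 DAT, against 13.01 and 12.82 at 0 DAT, and the difference of 2.56 was called (adjusted p = 0.039), although 7 of 8 fits that left out 1 array did not call it (2.13 to 2.66, adjusted p up to 0.20). ARR16 (RR16) had 10.54 and 10.68 in ahk3/ore12 at 1 DAT, against 10.46 and 10.24 at 0 DAT, and 5.07 and 4.96 in ein2/ore3 at 1 DAT, against 7.04 and 8.21 at 0 DAT. Its difference from ein2/ore3 was 2.87 (adjusted p = 0.015, and 0.051 to 0.075 without any of 6 single arrays), and that from Col, 1.98, was not called (adjusted p = 0.43).

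Other type-A genes fell in ahk3/ore12 as well. ARR8 (RR3 in the annotation) had 9.35 and 8.90 at 1 DAT, against 10.59 and 10.24 at 0 DAT, and fell by 1.29 (adjusted p = 0.00014). ARR9 had 9.17 and 8.99 at 1 DAT, against 11.58 and 11.04 at 0 DAT, and fell by 2.23 (adjusted p = 1.2e-05), compared with -1.87 in ein2/ore3 and -3.93 in Col. With the replicate number, which is also the slide, as a block, the ARR9 change differed from that of Col (1.7, adjusted p = 0.033, against 0.21 with no block). ARR15 fell by 1.41 (adjusted p = 0.0059), a call that was lost without ahk3/ore12 1 DAT replicate 2 (-1.24, adjusted p = 0.056) and without ahk3/ore12 0 DAT replicate 1 (-1.31, adjusted p = 0.051). ARR3 and ARR17 (RR17) changed by -0.75 and -0.01 and were not called, although ARR3 was called with the replicate block (adjusted p = 0.0093). Over the whole series ARR6 in ahk3/ore12 averaged 11.07, 11.45, 11.67 and 11.63 at 0, 1, 2 and 3 DAT. ARR5 averaged 10.57, 10.15, 11.17 and 11.29 at these times, and ARR7 stayed between 10.44 and 10.75. The ARR6 averages of Col at 1, 2 and 3 DAT were 5.47, 5.78 and 6.04.

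**Figure D2:**
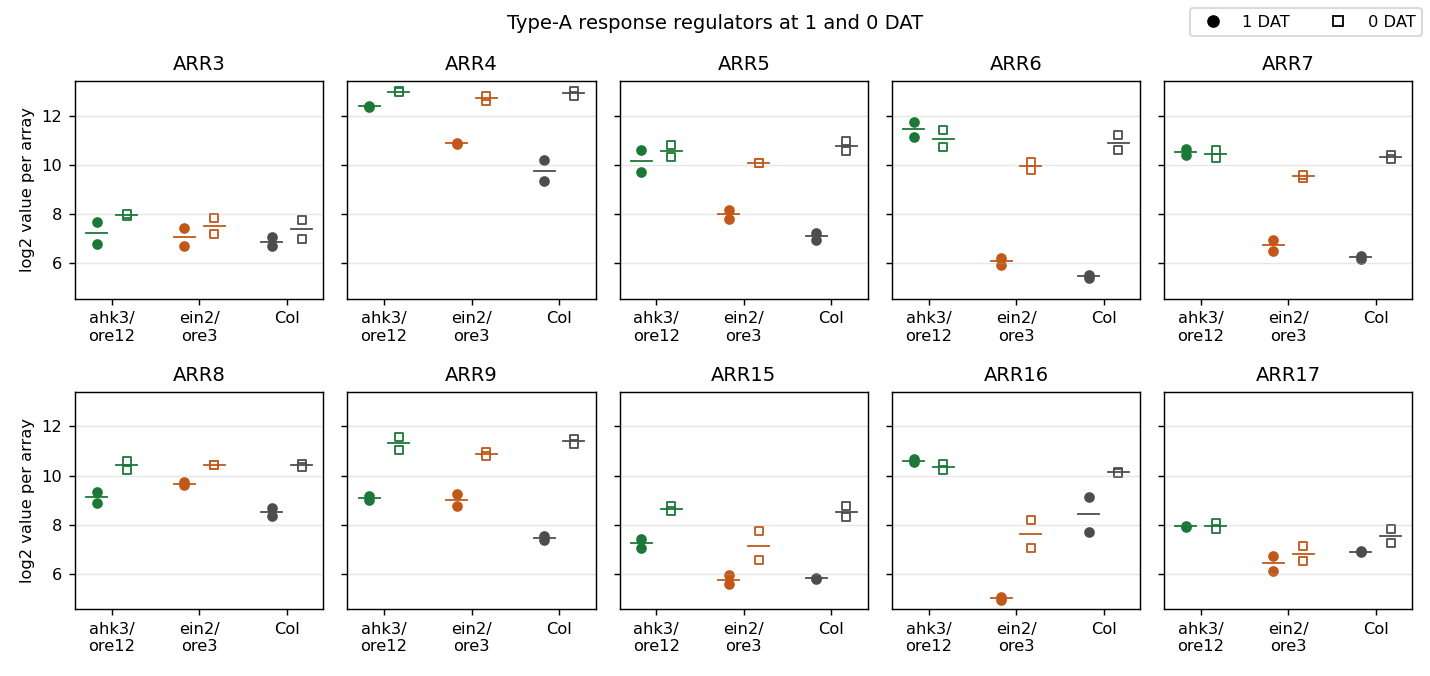
Log2 value on each array (y axis) of the 10 type-A ARR genes, 1 panel per gene, with filled circles for 1 DAT on the left and open squares for 0 DAT on the right of each genotype and bars at group means. ARR6, ARR7 and ARR5 of ahk3/ore12 lay at about the same level at both times, while Col and ein2/ore3 lay lower at 1 DAT.

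**Figure D3:**
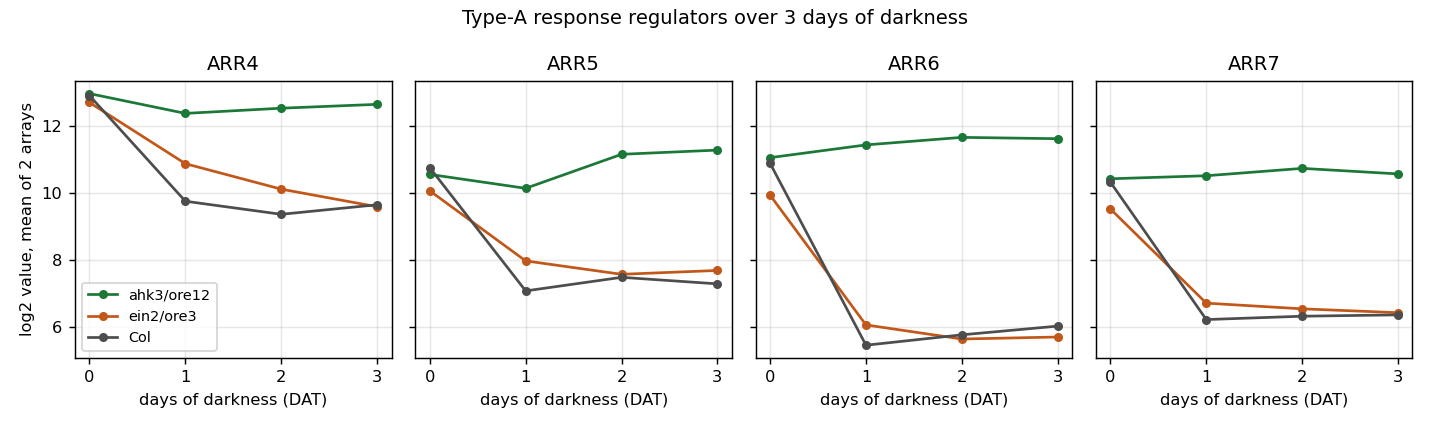
Group means (y axis, log2 value, n = 2 arrays) of ARR4, ARR5, ARR6 and ARR7 at 0, 1, 2 and 3 DAT (x axis) in the 3 genotypes. The ahk3/ore12 line for ARR6 ran between 11.07 and 11.67, and the Col line stayed at 6.04 or below after 0 DAT.

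In ahk3/ore12 the changes of receptor and phosphotransfer genes lay between -1.37 and 1.64, and those of type-B ARR genes between -0.69 and 0.81. Of 9 receptor and phosphotransfer genes, 1 rose (11.1%, against 13.6% of all genes) and 3 fell (33.3%, against 12.3%), with a median of 0.04. AHK4 (WOL in the annotation), a receptor strong in roots and vasculature, had 9.41 and 9.03 at 1 DAT, against 10.48 and 10.69 at 0 DAT, and fell by 1.37 (SE 0.23, adjusted p = 0.00033). It changed by -1.95 in ein2/ore3 and -2.79 in Col, and the differences from ein2/ore3 and from Col were not called. AHK2 and AHK3 changed by 0.04 and -0.04. Among the phosphotransfer genes AHP5 fell by 0.59 and AHP2 by 0.43 (adjusted p = 0.0036, and 0.051 without ahk3/ore12 1 DAT replicate 2, where the change was -0.36). AHP4 rose by 1.64 (SE 0.16), with 8.07 and 8.08 at 1 DAT, against 6.50 and 6.37 at 0 DAT. Its change in ein2/ore3 was 4.26, larger by a called margin (difference -2.62, adjusted p = 5.7e-05), and that in Col was 1.69. AHP1, AHP3 and AHP6 (HP6), an AHP that lacks the phosphate-accepting residue and blocks signalling, were not called. Of 7 type-B ARRs, ARR1 and ARR2 rose by 0.76 and 0.81, ARR12 fell by 0.69, and ARR10, ARR11, ARR14 and ARR18 were not called. ARR2 is the type-B regulator known as a phosphorylation target of AHK3 signalling in leaf longevity, and it had 12.16 and 12.08 at 1 DAT, against 11.40 and 11.22 at 0 DAT. The change of ARR11, -0.07, lay below the 0.79 of ein2/ore3 (difference -0.86, adjusted p = 0.045).

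Among the 6 cytokinin response factors CRF1 to CRF6, AP2/ERF-type transcription factors of which several respond to cytokinin, 4 rose (66.7%, against 13.6% of all genes, median 0.98). CRF5 had 11.02 and 10.38 at 1 DAT, against 8.96 and 8.55 at 0 DAT, and rose by 1.95 (SE 0.29, adjusted p = 9.0e-05), where it changed by 0.61 in ein2/ore3 and 0.20 in Col. CRF6, a factor linked to delayed leaf senescence, rose by 1.85. CRF3 rose by 1.13 and CRF4 by 0.82. Both calls were lost without ahk3/ore12 1 DAT replicate 1 (CRF3 1.0, adjusted p = 0.070, and CRF4 0.55, adjusted p = 0.30) and without ahk3/ore12 0 DAT replicate 2 (CRF3 0.90, adjusted p = 0.089, and CRF4 0.60, adjusted p = 0.25). CRF1 and CRF2 changed by 0.25 and -0.90 and were not called, although CRF2 was called with the replicate block (adjusted p = 0.011). None of the 6 was called different from Col or from ein2/ore3. CRF8, of the same name but not among the 6, fell by 1.12 (adjusted p = 0.0035). That call was lost when the fit held only the 4 ahk3/ore12 arrays compared (adjusted p = 0.055). CRF8 changed by -0.42 in ein2/ore3 and -0.81 in Col. Of 18 genes of cytokinin synthesis and breakdown 4 rose (22.2%) and 3 fell (16.7%), not far from the 13.6% and 12.3% of all genes (median -0.07). CKX1, a cytokinin oxidase that degrades the hormone, had 12.47 and 12.56 at 1 DAT, against 10 and 9.97 at 0 DAT, and rose by 2.53 (SE 0.18, adjusted p = 4.9e-08). The rise exceeded the 0.17 of ein2/ore3 (difference 2.37, adjusted p = 0.00019), and its margin over the 1.07 of Col just missed the threshold (1.47, adjusted p = 0.065). CKX5 rose by 2.09, to 10.29 and 10.19 at 1 DAT, against 8.16 and 8.14 at 0 DAT. IPT3, an isopentenyltransferase of cytokinin synthesis that responds to nitrate, had 10.54 and 10.30 at 1 DAT, against 11.65 and 11.58 at 0 DAT, and fell by 1.2. LOG1, which releases the active hormone from its nucleotide, fell by 0.88 where ein2/ore3 changed by 0.58 (difference -1.46, adjusted p = 0.0018). IPT7 (1.01), CKX7 (0.51) and IPT5 (-0.70) were called with adjusted p of 0.016, 0.030 and 0.045, and each lost its call without 3 of the 4 ahk3/ore12 arrays taken singly (changes of 0.79 to 1.07, 0.30 to 0.53 and -0.37 to -0.83). LOG7 and CKX4 (0.56 and -1.74) were called with the replicate block (adjusted p = 0.044 and 0.012) and not with no block. The remaining 9 genes of this group were not called.

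Few genes differed in their change between ahk3/ore12 and Col. The test of the difference called 14 of 32627 genes (0.0429%), 10 with a higher and 4 with a lower change in ahk3/ore12. An unadjusted p under 0.05 was reached by 1905 genes (5.84%). With the replicate block the test called 40 genes. Without ahk3/ore12 1 DAT replicate 1 or ahk3/ore12 0 DAT replicate 1 it called 4 genes. Without replicate 2 of ahk3/ore12 it called 5 (1 DAT left out) or 6 (0 DAT left out). Without replicate 1 of Col it called 6 (1 DAT left out) or 5 (0 DAT left out), and without replicate 2 of Col it called 18 or 11. The SE of such a difference had a median of 0.29. In data simulated with the spread of these arrays, this test recovered 1, 18, 35 and 46 of 50 genes whose changes differed by 0.5, 1, 2 and 3. There, 50 genes were changed at each size, while the test on the arrays called 14 in all. The Benjamini-Hochberg threshold depends on how many genes differ, so these recovered counts do not give the power reached for the difference from Col. At 0 DAT, ahk3/ore12 and Col differed in 8 genes, and at 1 DAT in 206. Type-A ARRs made up the top of the list, as ARR6, ARR7, ARR5 and ARR4 had 4 of the 5 largest differences. The other was RL3, a small MYB-like factor of the RADIALIS type, with a change of -0.89 in ahk3/ore12 (10.22 and 9.69 at 1 DAT, against 11.05 and 10.64 at 0 DAT), -2.75 in ein2/ore3 and -3.52 in Col. Its difference from Col was 2.63 (adjusted p = 0.024).

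AMP1, a carboxypeptidase-like protein whose loss raises cytokinin content, had 11.42 and 10.87 at 1 DAT in ahk3/ore12, against 12.17 and 12.31 at 0 DAT. It fell by 1.1, while the change was -2.24 in ein2/ore3 and -3.41 in Col (difference from Col 2.31, adjusted p = 0.0072). AT1G09750, AT5G11420, AT4G34220 and AT1G20823 changed by -0.20, -0.13, -0.74 and -0.26 in ahk3/ore12, compared with -2.47, -2.14, -2.47 and -1.97 in Col. The 4 genes with a lower change in ahk3/ore12 were BETA-OHASE 1, AT2G25625, AT5G61590 and SKP2B. BETA-OHASE 1, a carotenoid hydroxylase of the xanthophyll path, had 12.38 and 11.99 in ahk3/ore12 at 1 DAT, against 12.90 and 12.63 at 0 DAT, while Col had 14.13 and 13.74 at 1 DAT, against 12.65 and 12.64 at 0 DAT. The changes of opposite sign differed by -1.87 (adjusted p = 0.033). By 2 and 3 DAT the gene stood at 13.72 and 14.11 in ahk3/ore12. SKP2B, an F-box protein, changed by 0.22 in ahk3/ore12 and 1.32 in Col. AT5G61590 fell by 1.28 in ahk3/ore12, with -0.17 in Col, and AT2G25625 rose by 0.65, with 2.61 in Col. AMP1, AT1G09750, AT5G11420, AT4G34220 and AT1G20823 are given to complete the list of 14 and were chosen after their values were seen. Over 18 alternative settings, ARR7 stayed called in 18, ARR6 in 17, ARR5 in 16 and AMP1 in 15. The other 10 stayed called in 6 to 11 settings, and in 0 to 3 of the 8 that left out 1 array. The sign of all 14 differences held in all 18.

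**Figure D4:**
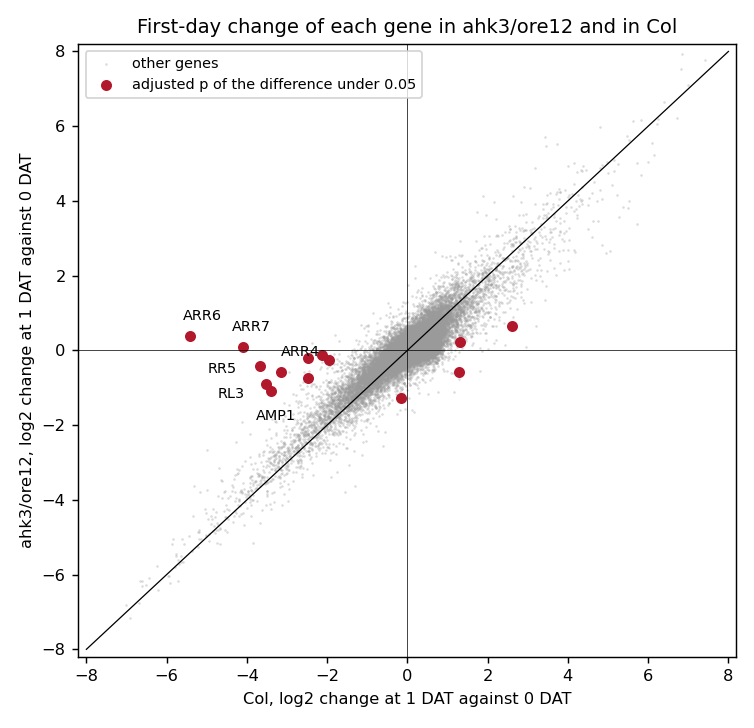
Change at 1 DAT minus 0 DAT in ahk3/ore12 (y axis, log2) against that in Col (x axis, log2) for all 32627 genes, with the line of equal change and the 14 called genes in red. Most genes lie along the line, and ARR6, ARR7 and ARR5 lie near 0 on the y axis and between -5.43 and -3.67 on the x axis.

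Most listed genes of photosynthesis fell. Of 35 genes of light-harvesting complexes and photosystems, 29 fell and 0 rose (median -0.73), where 12.3% of all genes fell. LHCB4.3, a minor antenna protein of photosystem II, had 6.60 and 6.70 at 1 DAT, against 10.84 and 11.30 at 0 DAT, and fell by 4.42 (SE 0.30). PSBS (NPQ4 in the annotation), the sensor of excess light in photosystem II, had 10.88 and 10.70 at 1 DAT, against 14.63 and 14.62 at 0 DAT, and fell by 3.84 (SE 0.22). The median of these genes was -0.27 in ein2/ore3 with 12 falls and -1.0 in Col with 31 falls. In the Calvin cycle, which fixes carbon, 11 of 13 genes fell (median -1.67). RBCS1B, a Rubisco small subunit gene, had 6.74 and 6.82 at 1 DAT, against 11.96 and 11.91 at 0 DAT, and fell by 5.16. Its near-identical family members can share probe signal, and RBCS1A, at a high level, changed by -0.31 and was not called. SBPASE, a bisphosphatase that controls the rate of the cycle, fell by 3.02, with 10.68 and 10.52 at 1 DAT, against 13.49 and 13.74 at 0 DAT.

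The chloroplast NDH complex carries cyclic electron flow around photosystem I. Of 18 nuclear genes of its subunits, a list made after values were seen, 17 fell (94.4%, against 12.3% of all genes). The median was -3.75, beside -2.77 in ein2/ore3 and -4.10 in Col. PnsB1 had 7.58 and 7.29 at 1 DAT, against 13.51 and 13.53 at 0 DAT, and fell by 6.09 (SE 0.21, adjusted p = 6.8e-11). NdhM had 7.73 and 7.55 at 1 DAT, against 13.52 and 13.35 at 0 DAT, and PnsB5 had 5.97 and 5.72 at 1 DAT, against 11.65 and 11.38 at 0 DAT. NdhS, the ferredoxin-binding subunit, was the exception with 13.78 and 13.73 at 1 DAT, against 14.03 and 13.80 at 0 DAT, and was not called. In chlorophyll synthesis 14 of 17 genes fell (82.4%, against 12.3% of all genes) and 0 rose (median -1.26). PORC (POR C), a light-dependent protochlorophyllide oxidoreductase, had 10.31 and 10.41 at 1 DAT, against 14.17 and 14.35 at 0 DAT. It fell by 3.90, further than in ein2/ore3 (difference -1.21, adjusted p = 0.024). DVR (PCB2), a divinyl reductase of the same path, fell by 3.82, with 8.45 and 8.55 at 1 DAT, against 12.33 and 12.31 at 0 DAT.

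Chlorophyll breakdown genes went both ways, with 6 of 13 higher (46.2%, against 13.6% of all genes) and 5 lower (38.5%, against 12.3%), and a median of 0.24. AT4G11910 (NYE2), a stay-green protein, had 10.51 and 10.32 at 1 DAT, against 7.41 and 7.93 at 0 DAT, and rose by 2.75. CYP89A9, an enzyme that modifies chlorophyll catabolites, rose by 1.33. CLH1, a chlorophyllase, had 9.76 and 9.57 at 1 DAT, against 13.66 and 13.69 at 0 DAT, and fell by 4.01, further than in ein2/ore3 (difference -2.19, adjusted p = 0.0088). AT1G44000, also on this list, fell by 2.68. Genes of starch and sugar metabolism mostly fell, 11 of 18 (61.1%, against 12.3% of all genes) with 1 rise (median -0.91). GBSS1, the granule-bound starch synthase, had 7.86 and 7.37 at 1 DAT, against 11.41 and 11.56 at 0 DAT, and its change of -3.87 lay below the -1.42 of ein2/ore3 (difference -2.46, adjusted p = 0.015). PHS2, a starch phosphorylase, fell by 2.58. STP1, a hexose importer repressed by sugar, was the rise, with 15.31 and 15.23 at 1 DAT, against 14.22 and 14.23 at 0 DAT.

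Of 17 measured dark-inducible genes, a group that responds to sugar starvation, 10 rose, 0 fell and 7 were not called (median 0.86), against 13.6% of all genes that rose. ProDH1 (ERD5), the proline dehydrogenase that burns proline in mitochondria, had 14.28 and 13.98 at 1 DAT, against 10.67 and 9.73 at 0 DAT, and rose by 3.93 (SE 0.26). ASN1, an asparagine synthetase that loads nitrogen onto a transport amino acid, had 14.86 and 14.48 at 1 DAT, against 11.89 and 11.39 at 0 DAT, and rose by 3.03 (SE 0.27). DIN2, a beta-glucosidase, and DIN11 are given because their replicates parted, and were chosen after their values were seen. DIN2 had 11.35 and 5.94 at 1 DAT, against 5.39 and 5.79 at 0 DAT, and its change of 3.06 was not called (adjusted p = 0.28). DIN11 had 8.68 and 6.08 at 1 DAT, against 5.65 and 5.57 at 0 DAT, and its change of 1.77 was not called. In both the first replicate moved and the other stayed near its level at 0 DAT. The median of the 17 genes was 1.34 in replicate 1 and 0.58 in replicate 2.

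Breakdown of branched-chain amino acids, which feeds mitochondrial respiration when sugar is short, had 6 rises among 13 genes (46.2%, against 13.6% of all genes) and 0 falls (median 0.29). IVD, an isovaleryl-CoA dehydrogenase, had 12.15 and 11.71 at 1 DAT, against 8.14 and 8.07 at 0 DAT, and rose by 3.83. BCAT2 (BCAT-2), the transaminase that begins the path, had 13.89 and 13.25 at 1 DAT, against 9.94 and 9.85 at 0 DAT, and rose by 3.68. In nitrogen metabolism 3 of 13 genes rose and 7 fell (53.8%, against 12.3% of all genes, median -0.32). GDH2, a glutamate dehydrogenase, had 13.77 and 13.23 at 1 DAT, against 10.28 and 10.86 at 0 DAT, and rose by 2.93, and GLN1.3, a cytosolic glutamine synthetase, rose by 0.97. NIR1, the nitrite reductase, fell by 1.67. NIA1, a nitrate reductase, had 10.97 and 9.34 at 1 DAT, against 12.84 and 12.94 at 0 DAT (change -2.74, adjusted p = 0.021). The NIA1 call was lost without ahk3/ore12 1 DAT replicate 2 (-1.92, adjusted p = 0.21), without ahk3/ore12 0 DAT replicate 1 (-2.79, adjusted p = 0.083) and without ahk3/ore12 0 DAT replicate 2 (-2.69, adjusted p = 0.091). Fatty acid breakdown and gluconeogenesis had 5 rises of 9, with PPDK at 1.01 and MFP2 at 0.74. Of 21 autophagy genes 3 rose (14.3%, close to the 13.6% of all genes) and 0 fell (median 0.18). In ein2/ore3 12 rose and in Col 9, where 13.9% and 13.3% of all genes did. No gene of the 21 was called different in its change from Col or from ein2/ore3. The autophagy rises included ATG8B, a ubiquitin-like protein of the autophagosome (1.69), and NBR1, a cargo receptor (0.80).

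Genes linked to senescence rose in part. Of 26 senescence transcription factors and senescence-associated genes (SAGs), 15 rose (57.7%, against 13.6% of all genes) and 0 fell (median 0.99), and the median was 0.89 in ein2/ore3 and 1.46 in Col. NAC019 had 11.49 and 10.83 at 1 DAT, against 7.62 and 7.26 at 0 DAT, and rose by 3.72 (SE 0.31). SAG21, a late-embryogenesis-abundant protein of mitochondria, had 14.25 and 13.90 at 1 DAT, against 11.11 and 10.97 at 0 DAT, and rose by 3.04. Its rise exceeded that of ein2/ore3 (0.55) by 2.49 (adjusted p = 0.0016). The next 2 genes were chosen after their values were seen. ORE1 (NAC6), a NAC factor that drives leaf death downstream of EIN2, had 12.20 and 12.35 at 1 DAT, against 10.69 and 10.26 at 0 DAT, and rose by 1.80. SAG12, the cysteine protease that marks late senescence, was dim on all 4 arrays, with 5.24 and 5.24 at 1 DAT, against 5.36 and 5.27 at 0 DAT.

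In the ethylene pathway 12 of 17 genes rose (70.6%, against 13.6% of all genes) and 0 fell (median 0.72), compared with 5 rises in ein2/ore3 and 11 in Col. The receptors ERS2 and ETR2, which repress the response until ethylene binds, moved most. ERS2 had 11.86 and 11.56 at 1 DAT, against 8.75 and 8.27 at 0 DAT, and rose by 3.20 (SE 0.26), where ein2/ore3 changed by 0.86 (difference 2.34, adjusted p = 0.0030). ETR2 had 12.84 and 12.66 at 1 DAT, against 10.35 and 9.53 at 0 DAT, and rose by 2.81 (difference from ein2/ore3 2.13, adjusted p = 0.0036). ERF1, a transcription factor that EIN3 switches on, had 9.39 and 8.65 at 1 DAT, against 6.64 and 6.54 at 0 DAT, and its rise of 2.43 exceeded the 0.09 of ein2/ore3 (adjusted p = 0.014). EIN2, the membrane protein that relays the signal and is mutated in ein2/ore3, had 13.72 and 13.71 at 1 DAT, against 13.32 and 13.38 at 0 DAT, and rose by 0.37. Of the 17 genes, 6 had a called larger rise than in ein2/ore3, where 1.07% of all genes did.

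The 7 stress genes that the study singled out from these samples all rose in ahk3/ore12 (median 3.58), a list that is not independent evidence of its direction. Their median was 0.76 in ein2/ore3, with 2 rises and 1 fall, and 3.92 in Col. Of the 7, 6 had a called higher change than in ein2/ore3, where 1.07% of all genes did. The study took these genes from processes affected in ein2/ore3 on these arrays, so that count is not independent evidence either. RAP2.6, an ERF-type factor, had 9.97 and 9.69 at 1 DAT, against 5.66 and 5.70 at 0 DAT, and rose by 4.15. AT4G08780, from the oxidative stress part of that list, had 10.27 and 9.86 at 1 DAT, against 5.61 and 5.94 at 0 DAT. PR4, a chitin-binding pathogenesis-related protein, had 12.49 and 12.45 in ahk3/ore12 at 1 DAT, against 11.05 and 11.28 at 0 DAT, and rose by 1.31. In ein2/ore3 it had 10.28 and 9.92 at 1 DAT, against 10.95 and 11.16 at 0 DAT, so that the changes had opposite signs (difference 2.26, adjusted p = 0.0010). AT4G16260 rose by 3.58 (difference from ein2/ore3 3.71, adjusted p = 0.046), and AT1G21520 rose by 2.28 (difference 1.52, adjusted p = 0.054). Of 10 hypoxia genes 6 rose, where 13.6% of all genes did (median 0.70). LBD41, a factor of the core hypoxia response, had 11.33 and 10.66 at 1 DAT, against 8.93 and 8.63 at 0 DAT. HB1, a non-symbiotic haemoglobin, had 9.53 and 8.06 at 1 DAT, against 6.56 and 6.41 at 0 DAT, and its rise of 2.31 was not called without ahk3/ore12 1 DAT replicate 1 (1.58, adjusted p = 0.063).

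In other hormone pathways rises and falls are set beside the 13.6% of all genes that rose and the 12.3% that fell. In the abscisic acid pathway 3 of 16 genes rose (18.8%) and 2 fell (12.5%), both close to these shares (median 0.08), while 10 rose in ein2/ore3 (median 0.75), where 13.9% of all genes did, and 3 of the 16 had a called lower change than in ein2/ore3, where 2.14% of all genes did. NCED3, which controls the pace of abscisic acid synthesis and was chosen after its values were seen, had 10.40 and 10.30 at 1 DAT in ahk3/ore12, against 10.95 and 10.36 at 0 DAT, and was not called. In ein2/ore3 it had 12.69 and 12.73 at 1 DAT, against 11.16 and 11.04 at 0 DAT, and the changes differed by -1.92 (adjusted p = 0.0065). ABI2, a phosphatase that restrains the response, fell by 1.1 in ahk3/ore12 with a change of 0.48 in ein2/ore3 (difference -1.57, adjusted p = 0.015), and ABI1, its close relative, rose by 0.89. HAI1 and COR15A had called changes of 1.28 and -2.13 that were lost without ahk3/ore12 1 DAT replicate 1 (0.77 and -1.52, adjusted p = 0.17 and 0.096), and HAI1 also without ahk3/ore12 0 DAT replicate 1 (1.26, adjusted p = 0.053). In the jasmonate list 7 of 14 genes fell and 2 rose (14.3%, median -0.75). PDF1.2, a defensin, had 8.68 and 9.89 at 1 DAT, against 11.64 and 12.34 at 0 DAT, and VSP1, a storage protein induced by wounding, had 8.99 and 9.31 at 1 DAT, against 11.82 and 11.72 at 0 DAT. Of 79 SAUR genes, small auxin-induced proteins of cell expansion, 31 fell (39.2%, against 12.3% of all genes) and 3 rose (3.80%, against 13.6%), with a median of -0.26, and 12 of the 79 had a called lower change than in ein2/ore3, where 2.14% of all genes did. AT2G21210 fell by 4.27, with 7.73 and 7.75 at 1 DAT, against 12.22 and 11.79 at 0 DAT. AT5G18030 (SAUR21) had 6.65 and 7.17 at 1 DAT, against 11.19 and 10.35 at 0 DAT, and its change of -3.86 lay below the 0.37 of ein2/ore3 (difference -4.23, adjusted p = 0.0011). SAUR genes lie in clusters of similar copies, so single members can share signal. Of 32 Aux/IAA repressors 11 rose (34.4%) and 7 fell (21.9%), among them IAA28 (1.77) and AXR3 (-2.08).

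More genes of light signalling and of the clock fell than rose, beside 12.3% of all genes that fell and 13.6% that rose, and per the methods leaves were taken at 1 set hour of the subjective day. Of 18 light signalling and greening regulators 3 rose and 9 fell (median -0.54). PIF3, a phytochrome-interacting factor that builds up in darkness, had 11.90 and 11.24 at 1 DAT, against 9.78 and 9.62 at 0 DAT, and rose by 1.87, and the photoreceptor gene PHYB rose by 1.17. PIF7 had 9.30 and 8.70 at 1 DAT, against 11.87 and 11.58 at 0 DAT, and fell by 2.73. ELIP1, an early light-induced protein, fell by 3.02. In the clock 9 of 13 genes fell and 2 rose (median -0.54). The morning genes PRR9 and CCA1 fell by 1.55 and 1.48, and PRR9 fell further than in ein2/ore3 (difference -0.87, adjusted p = 0.0087). PRR9 had 12.30 and 12.40 at 1 DAT, against 14.02 and 13.77 at 0 DAT. The evening genes LUX (PCL1) and ELF3 rose by 1.28 and 0.67. Flavonoid genes fell for CHS, given above, and PAP1, a MYB activator of anthocyanin synthesis (-1.89), and 3 of 10 fell in all. Among 11 cell wall loosening genes 3 rose and 3 fell. EXPA5, an expansin, had 6.66 and 6.48 at 1 DAT, against 11.55 and 11.96 at 0 DAT, and its fall of 5.19 exceeded that in ein2/ore3 (difference -2.66, adjusted p = 0.0018). EXPA3 (EXP3), of the same family, had 10.88 and 10.63 at 1 DAT, against 8.78 and 8.24 at 0 DAT, and rose by 2.25.

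Of 48 ribosomal protein genes whose names give no organelle, 34 rose (70.8%, against 13.6% of all genes) and 6 fell (12.5%, beside 12.3% of all genes), with a median of 0.80. The 48 are not all of 1 compartment, as the study's own names mark RPS2, which rose by 0.82, as mitochondrial and RPL12-C and RPL27 as plastid proteins. RPL12-C and RPL27 are among the falls. Counts of falls and medians of this list, in any genotype, therefore do not describe cytosolic ribosomal proteins alone. The median was 0.12 in ein2/ore3, with 1 rise and 7 falls, and 0.59 in Col, with 31 rises, and 12 of the 48 had a called higher change than in ein2/ore3, where 1.07% of all genes did. RPS6, a subunit protein phosphorylated downstream of TOR kinase, had 13.91 and 13.69 at 1 DAT, against 12.49 and 12.43 at 0 DAT, and rose by 1.34, more than in ein2/ore3 (difference 1.21, adjusted p = 0.0056). RPL3B had 11.41 and 11.15 at 1 DAT, against 9.47 and 9.69 at 0 DAT, and rose by 1.7. The 6 that fell were RPL9, RPL12-A, RPL15, RPL27, RPS9 and RPL12-C, by 1.5 to 0.55, named after their values were seen. RPL9, one of 4 genes of the chloroplast ribosome the study singled out, had 9.98 and 10.04 at 1 DAT, against 11.35 and 11.67 at 0 DAT. The other 3 of these, EMB3105, PRPL28 and the chaperonin CPN60B, fell by 1.42, 1.12 and 0.93, and CPN60B fell less than in ein2/ore3 (difference 0.92, adjusted p = 0.0495). The study took these 4 from processes affected in ahk3/ore12 on these arrays, so the difference is not independent evidence. Of 17 ribosomal proteins named for the chloroplast, 15 fell and 1 rose (median -0.99), beside medians of -1.14 in ein2/ore3 and -1.46 in Col. PSRP3/1, a plastid-specific protein of the ribosome, had 11.26 and 11.17 at 1 DAT, against 13.17 and 13.08 at 0 DAT. Of the ribosomal proteins named for the mitochondrion, RPS14 rose by 0.73 and MRPL11 changed by 0.32 and was not called (adjusted p = 0.054). No ribosomal protein gene of these lists was called different from Col.

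**Figure D5:**
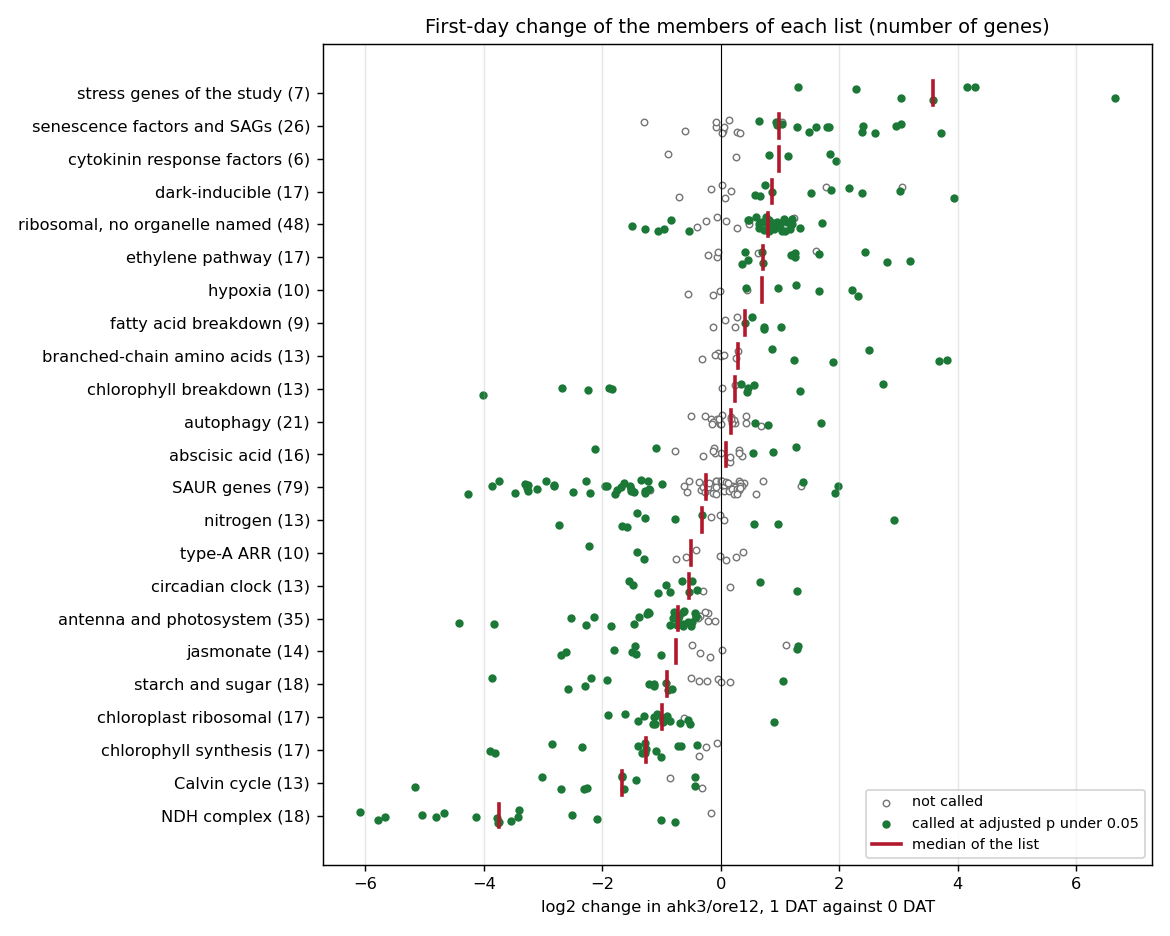
Change in ahk3/ore12 at 1 DAT minus 0 DAT (log2) of each member of 23 gene lists, with filled points for called genes, open points for genes not called, a red bar at the median and the number of genes. The photosynthesis lists lie below 0, and ribosomal proteins with no organelle named have a median of 0.80.

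Counts for families of transcription factors and enzymes are read beside the 13.6% of all genes that rose and the 12.3% that fell. Of 71 WRKY factors 21 rose (29.6%) and 5 fell (7.04%, median 0.42). WRKY60 had 9.60 and 9.47 at 1 DAT, against 6.23 and 6.37 at 0 DAT, and rose by 3.24. WRKY45, an activator of senescence, had 12.07 and 11.81 at 1 DAT, against 9.03 and 8.92 at 0 DAT, and its rise of 2.97 exceeded the 1.12 of ein2/ore3 (difference 1.85, adjusted p = 0.0012). Of 99 NAC factors 22 rose (22.2%) and 5 fell (5.05%), led by NAC047 with 12.24 and 11.33 at 1 DAT, against 7.51 and 7.19 at 0 DAT. Of 38 bZIP factors 11 rose (28.9%) and 2 fell (5.26%). Among them bZIP44, of the class repressed by sucrose at translation, had 10.96 and 11.04 at 1 DAT, against 7.05 and 6.87 at 0 DAT, and rose by 4.04 (SE 0.23). Of 20 histone genes 10 rose (a share of 50%) and 2 fell (10%), with GAMMA-H2AX higher by 1.35 and HTA4 lower by 2.22. Of 33 heat shock proteins 7 rose (21.2%) and 4 fell (12.1%, close to the share of all genes), and the mitochondrial chaperonin HSP60-2 had 12.92 and 12.87 at 1 DAT, against 10.71 and 11.61 at 0 DAT. Among 45 glutathione S-transferases 7 rose (15.6%, close to the share of all genes) and 10 fell (22.2%). GSTF6 rose by 2.91 and GSTU18 fell by 3.79. GSTU18 had 8.32 and 8.78 at 1 DAT, against 12.33 and 12.34 at 0 DAT, and fell further than in ein2/ore3 (difference -2.01, adjusted p = 0.0024). Of 34 peroxidases 12 rose (35.3%) and 7 fell (20.6%), from AT5G64120 (4.79) and Prx37 to GPX7, a plastid glutathione peroxidase (-3.75).

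More genes separated ahk3/ore12 from ein2/ore3 than from Col. The test of the difference in change called 1048 genes (3.21%), 350 (1.07%) with a higher and 698 (2.14%) with a lower change in ahk3/ore12. With the replicate block it called 1794. Without ein2/ore3 1 DAT replicate 1 it called 352, and leaving out any of ahk3/ore12 1 DAT replicate 1 (380), ahk3/ore12 1 DAT replicate 2 (519), ahk3/ore12 0 DAT replicate 1 (378), ein2/ore3 1 DAT replicate 2 (456) or ein2/ore3 0 DAT replicate 2 (427) also moved the count by over 1.5 times. Of the 698 genes with a lower change, 469 fell in ahk3/ore12, 44 rose and 185 were not called there. Of the 350 with a higher change, 290 rose in ahk3/ore12, 14 fell and 46 were not called. AT1G03010 had 10.73 and 11.24 in ahk3/ore12 at 1 DAT, against 6.11 and 6.21 at 0 DAT, while ein2/ore3 stayed dim with 5.64 and 5.75 at 1 DAT, against 5.88 and 5.61 at 0 DAT (difference 4.88, adjusted p = 0.00019). The same form was seen in AT1G36060, with 11.19 and 10.44 in ahk3/ore12 at 1 DAT, against 5.17 and 4.98 at 0 DAT (difference 4.86). ORS1 (AT2G41230), a gene named for organ size, had 12.67 and 11.46 in ahk3/ore12 at 1 DAT, against 7.11 and 7.0 at 0 DAT, and 7.0 and 7.25 in ein2/ore3 at 1 DAT, against 7.01 and 6.52 at 0 DAT (difference 4.65, adjusted p = 0.0014). AT4G22490 and ARR6 completed the 5 largest, with differences of 4.35 and 4.25.

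In the other direction AT1G66100 and AT3G28220 fell in ahk3/ore12 and stayed high in ein2/ore3. AT1G66100 had 7.11 and 6.81 in ahk3/ore12 at 1 DAT, against 14 and 13.43 at 0 DAT, and 13.27 and 12.88 in ein2/ore3 at 1 DAT, against 14.01 and 13.55 at 0 DAT (difference -6.05, adjusted p = 0.00025). AT3G28220 had 5.47 and 5.57 in ahk3/ore12 at 1 DAT, against 11.61 and 11.97 at 0 DAT, and 11.42 and 11.73 in ein2/ore3 at 1 DAT, against 11.88 and 12.60 at 0 DAT (difference -5.61). AT2G27385 followed with -4.98. GolS3, a galactinol synthase of the raffinose path that responds to cold, changed in opposite directions. It had 7.43 and 8.38 in ahk3/ore12 at 1 DAT, against 10.11 and 10.62 at 0 DAT, and 13.06 and 12.98 in ein2/ore3 at 1 DAT, against 11.11 and 10.81 at 0 DAT. The difference of -4.52 (adjusted p = 0.0083) was not called without ahk3/ore12 1 DAT replicate 1 (-4.05, adjusted p = 0.051). CYP81F4, a cytochrome P450 of indole glucosinolate synthesis, stayed near the dim range in ahk3/ore12 with 6.85 and 7.0 at 1 DAT, against 7.13 and 6.96 at 0 DAT, and rose in ein2/ore3 with 11.41 and 10.83 at 1 DAT, against 6.54 and 7.01 at 0 DAT (difference -4.47, adjusted p = 0.00044).

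Few genes of the organelle genomes were called in ahk3/ore12, where 13.6% of all genes rose and 12.3% fell. Of 87 genes of the chloroplast genome 5 fell (5.75%) and 0 rose (median -0.13). Of 107 genes of the mitochondrial genome 0 were called (median 0.14). In Col 11 chloroplast genes fell and 1 rose, and 14 mitochondrial genes rose and 0 fell. In ein2/ore3 2 chloroplast genes fell and 0 rose, and 7 mitochondrial genes rose and 0 fell. Of all genes, 13.3% rose in Col and 13.9% in ein2/ore3, and 4903 of 32627 fell in Col and 8.87% in ein2/ore3. The mitochondrial median in ahk3/ore12 was 11.25 and 11.57 on the arrays at 1 DAT, against 11.56 and 10.89 at 0 DAT. Replicate 1 thus moved by -0.36 and replicate 2 by 0.65, with opposite signs in 101 of the 107 genes, and the chloroplast medians were -0.40 and 0.09 with opposite signs in 59 of 87 genes. In ein2/ore3 the mitochondrial medians were 0.24 and 0.18, and in Col 0.39 and 0.59. Both organelle lists were made after values were seen. The share of organelle RNA on each array was not tested as a source of this spread.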

How the data were processed

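Leaf RNA of 3 genotypes at 4 time points, with 2 replicates in each of 12 groups, was hybridized by the authors to single-channel NimbleGen arrays. The authors background-corrected, quantile-normalized and summarized the probes by RMA in NimbleScan, and the deposited array tables hold linear intensity values per transcript variant, each from at most 4 probes. The authors' series table, used here, holds log2 values per gene. It differed from the log2 of the summed intensities of the variants by at most 0.00514, and 29025 genes had 1 variant. RMA with quantile normalization gives all arrays nearly the same distribution, so a shift shared by most genes would not be seen. No detection call was used. The number of arrays limits the precision, and the median SE of a change was 0.20.

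Means of the 12 groups were fitted to all 24 arrays in R 4.3.3 with limma 3.58.1, without further normalization or a filter, with Benjamini-Hochberg adjustment over 32627 genes at 0.05. The contrasts were the change in ahk3/ore12 at 1 DAT minus 0 DAT, and that change minus the change in Col or in ein2/ore3. Of the genes, 31993 matched a newer annotation (TAIR10.1) used for names alone, as the array was designed on an older build, and 634 kept their locus tag. Gene lists were set by hand or formed from words in gene names, and 1 listed gene was not analysed here. Gene and promoter sequences were not used here.

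The comparison, the lists and the tests were chosen with earlier results of these data known. Named are the 10 largest rises and falls, 5 genes in each direction of each difference, all cytokinin genes, up to 2 called genes per direction of the other lists, and genes the study names. Any others were chosen after their values were seen.

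The alternatives were other sets of arrays in the fit, the replicate number as a block, median centring, quantile normalization, other summaries of variants, leaving out the dimmest 25% of genes, stricter thresholds, a trended robust prior, and leaving out each compared array in turn. Leaving out ein2/ore3 2 DAT replicate 2, whose median of 8.91 lay below the 9.02 to 9.16 of the others, was added after seeing the data. All arrays of a replicate number shared a slide, per the array file names. Deviations of the 2 ahk3/ore12 groups from their means correlated across genes with 0.345 by number, and over all 66 pairs of groups the median was 0.302, with 47 over 0.1 and the lowest at -0.159. The numbers therefore mark a slide and no proven pairing of plants.

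The procedure was tested on simulated data of 32627 genes with 50 genes changed at each size. For the change in ahk3/ore12 it recovered 5, 27, 43 and 49 genes at sizes of 0.5, 1, 2 and 3, with 6 unchanged genes called. Far fewer genes were changed in the simulated data than the 25.9% called on the arrays. The Benjamini-Hochberg threshold was therefore stricter there, and these recovered counts do not give the power reached for that change. For the difference from Col it called 8 unchanged genes. For the difference from ein2/ore3 it recovered 0, 9, 40 and 47 genes, with 4 unchanged genes called. How many genes truly differ between the genotypes is not known, so the recovered counts for these differences do not give the power reached either.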

Additional observations from a re-analysis of the deposited data

Results flagged for a closer look

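Results are given here because the change over the first day differed between genotypes by the test of the difference itself (limma, adjusted p under 0.05). Between ahk3/ore12 and Col this was so for 14 genes. The differences, as the ahk3/ore12 change minus the Col change on the log2 scale, were 5.805 for ARR6, 4.19 for ARR7, 3.26 for ARR5 (RR5), 2.625 for RL3 and 2.56 for ARR4 among the highest. The lowest were -1.96 for AT2G25625, -1.87 for BETA-OHASE 1, -1.105 for AT5G61590 and -1.095 for SKP2B. Only ARR6, ARR7, ARR5 and AMP1 of the 14 were called in more than 11 of 18 alternative settings.

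Between ahk3/ore12 and ein2/ore3 the test called 1048 genes. The ahk3/ore12 change minus the ein2/ore3 change was 4.875 for AT1G03010, 4.86 for AT1G36060, 4.65 for ORS1, 4.345 for AT4G22490 and 4.25 for ARR6, the 5 highest. The 5 lowest were -6.05 for AT1G66100, -5.605 for AT3G28220, -4.975 for AT2G27385, -4.52 for GolS3 and -4.465 for CYP81F4. Of the cytokinin genes, ARR7 (2.90), ARR16 (RR16, 2.87), CKX1 (2.365) and ARR5 (RR5, 1.675) had a higher change in ahk3/ore12, while AHP4 (-2.615), LOG1 (-1.455) and ARR11 (-0.86) had a lower one. The ARR5 difference from ein2/ore3 was not called in 6 of the 8 fits that left out 1 array.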

How the results depend on the processing

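The count of 8440 genes called in ahk3/ore12 stayed within 1.5 times under all alternatives but 1. A change of at least 1 left 3671 genes, 1571 higher and 2100 lower. Leaving out 1 of the 4 arrays gave 6188 to 6998 genes, 2777 to 3846 higher (2777 without ahk3/ore12 1 DAT replicate 1, and 4598 without ein2/ore3 2 DAT replicate 2) and 3084 to 3549 lower. With the replicate block 9609 genes were called, 8438 of them among the 8440. The 14 genes that differed from Col depended on the setting. The count was 1 from the 8 arrays compared, 3 from the 16 arrays of both genotypes, 4 at an FDR of 0.01, 25 after quantile normalization, 32 without the dimmest genes, 40 with the replicate block, 44 with the trended prior and 4 to 18 without 1 array (7 without ein2/ore3 2 DAT replicate 2). For the 1048 genes that differed from ein2/ore3 the count was 630 from the 8 arrays compared, 317 at an FDR of 0.01, 662 with a difference of at least 1, 1794 with the replicate block and 352 to 916 without 1 array (1119 without ein2/ore3 2 DAT replicate 2). Fewer arrays leave fewer degrees of freedom, and with 1 array left the group is assumed to vary like the others. Other causes were not tested. Of 155 called named genes, 25 lost their call under some alternative other than a stricter threshold. Changes that were not called turned sign without 1 array in RR5 (-0.865 to 0.035), ARR7 (-0.065 to 0.245), RR17 (-0.14 to 0.12), HK3, the AHK3 gene (-0.185 to 0.115), ARR11 (-0.20 to 0.06), RR14 (-0.035 to 0.185), LOG4 (-0.25 to 0.04), LOG5 (-0.02 to 0.30), CKX2 (-0.025 to 0.965) and CKX3 (-0.175 to 0.095). So did the uncalled differences of ARR3 from Col (-0.695 to 0.185) and from ein2/ore3 (-0.75 to 0.13), and of ARR15 from ein2/ore3 (-0.59 to 0.56). The dim range limits 7296 genes that lay in it at both times, 79 of which were called.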
